A study of Homo sapiens with 2 samples.

Results

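Mitochondrially encoded RNAs were followed in the RNA that an anti-IMP1 antibody or normal IgG precipitated from lysates of T47D cells, a luminal breast cancer line of wild-type genotype. IMP1 is an RNA-binding protein best known for binding mRNAs and lncRNAs in the cytoplasm. The comparison asks which RNAs were recovered more with the IMP1 antibody than with IgG, and each arm holds 1 library, so that no difference below has a replicate check or a test. The members are all genes whose name starts with MT- or MTRNR2L, which gave 39 of the 18781 genes in the table. They comprise 2 ribosomal RNAs, 13 protein-coding genes, 11 transfer RNAs and 13 nuclear MTRNR2L copies, and all 26 genes that the table places on the mitochondrial chromosome are among them. The other mitochondrial tRNA genes were not analysed here.

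The mitochondrial genome is a small circle that is transcribed from both of its strands into long precursor RNAs. Enzymes cut out the tRNAs, which often lie between the other genes, and thereby release the rRNAs and mRNAs. The rRNAs build the mitochondrial ribosome, the tRNAs decode within the organelle, and the mRNAs encode core subunits of complexes I, III, IV and V of the respiratory chain. These RNAs stay inside the organelle, and mitochondrial rRNA is among the most abundant RNA of cultured cells once cytosolic rRNA has been depleted. Fragments of mitochondrial DNA have also been copied into the nuclear genome. The MTRNR2L genes are such copies of MT-RNR2 and carry reading frames related to humanin, a short peptide encoded within the 16S rRNA gene.

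Values are in FPKM, fragments per kilobase of transcript scaled to the number of mapped fragments, and the read depth behind them is unknown. The table's FPKM added up to 353885 with IMP1 and 1298363 with IgG, with 17233 and 11283 genes above 0. Ratios are on the scale of log2(FPKM + 0.1), IMP1 over IgG, which understates the change of low genes. Over all genes the median log2 ratio was 0.40, and it was -0.78 over the 6909 genes at 1 FPKM or more in each library. Rescaling the IMP1 library would add 0.79 (to equalise the median of those 6909 genes), 1.51 (to equalise the sum over genes that are no member) or 1.88 (to equalise the sum over all genes) to each log2 ratio before the pseudocount. Quotients within a library do not depend on this choice. The luminal identity of the cells was visible in both libraries, with KRT18 at 143 FPKM (IMP1) and 25.8 FPKM (IgG), although TFF1 and TFF3 were listed at 0 in the IgG library. Of the 14 luminal markers, 9 were at least 2-fold higher with IMP1 and none lower, where 39.9% of all genes were higher and 29.9% lower. Of 15 mesenchymal markers, which T47D cells should largely lack, 13 were at least 2-fold lower with IMP1. Their summed level was 5.86 FPKM with IMP1 and 243 FPKM with IgG, with COL1A2, DCN, LUM, SPARC, PDGFRB and ZEB2 at 0 in the former and only FAP at 0 in the latter. Marker levels in precipitates do not separate the number of cells of a type, the RNA per cell and the recovery. The source of these marker differences was not tested. The part of these differences in the mitochondrial values was not tested.

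Mitochondrial RNA made up a large part of both precipitates, and its makeup differed between them. The 39 members held 48.5% of the summed FPKM with IMP1 and 60.1% with IgG. The rRNAs accounted for 37.7% and 52.5%, the mRNAs for 9.87% and 6.92%, the tRNAs for 0.866% and 0.479%, and the MTRNR2L copies for 0.0612% and 0.221%. With the rRNAs left out of the sum, the mRNAs took 15.8% with IMP1 and 14.6% with IgG. FPKM is a level per length, so these are shares of summed levels and not shares of reads.

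**Figure D1:**
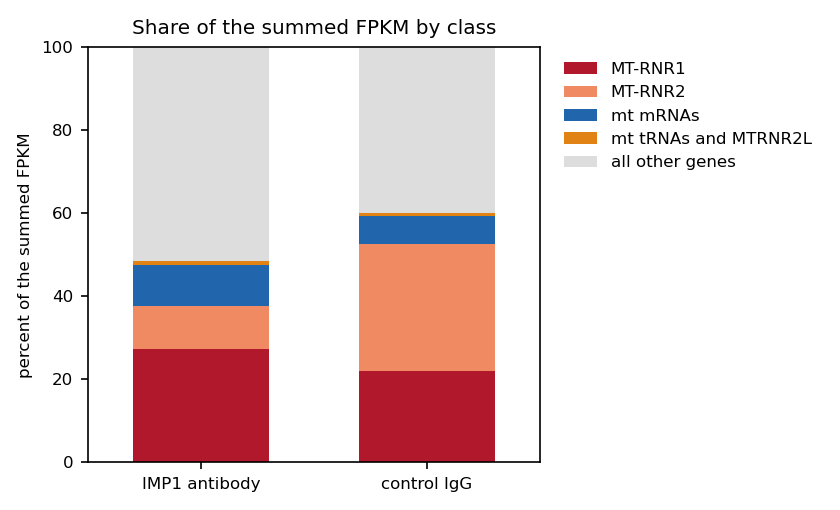
Percent of the summed FPKM (vertical axis, from 0 to 100) held by MT-RNR1, MT-RNR2, the mitochondrial mRNAs, the tRNAs together with the MTRNR2L copies, and all other genes, in 1 library per bar. MT-RNR1 takes 27.4% with the IMP1 antibody and 22.0% with IgG, while MT-RNR2 takes 10.3% and 30.5%.

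The 2 rRNAs were the 2 highest genes of each library, and they changed places between them. MT-RNR1 (ENSG00000211459, chrM from 648 to 1601 in the table, build hg19 per the labels) encodes the 12S rRNA of the small ribosomal subunit, and had 97004 FPKM with IMP1 and 285640 FPKM with IgG. MT-RNR2 (ENSG00000210082, chrM from 1671 to 3229) encodes the 16S rRNA of the large subunit, and had 36324 FPKM with IMP1 and 395449 FPKM with IgG. MT-RNR1 therefore ranked first with IMP1 and MT-RNR2 ranked first with IgG. MT-RNR2 was 10.9-fold lower in the IMP1 library and MT-RNR1 2.94-fold lower, with log2 ratios of -3.44 and -1.56. The direction for MT-RNR2 was the same under each rescaling, at -1.57 or lower, whereas MT-RNR1 was at 0.32 with equal sums over all genes. The quotient of 16S over 12S rRNA was 0.374 in the IMP1 precipitate and 1.38 in the IgG precipitate, a 3.70-fold difference that no scaling between libraries can alter. Set against the summed FPKM of the mRNAs, the 12S rRNA stood at 2.78 with IMP1 and 3.18 with IgG, and the 16S rRNA stood at 1.04 and 4.40. Relative to the mRNAs, the libraries thus differed far more in the 16S than in the 12S rRNA.

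**Figure D2:**
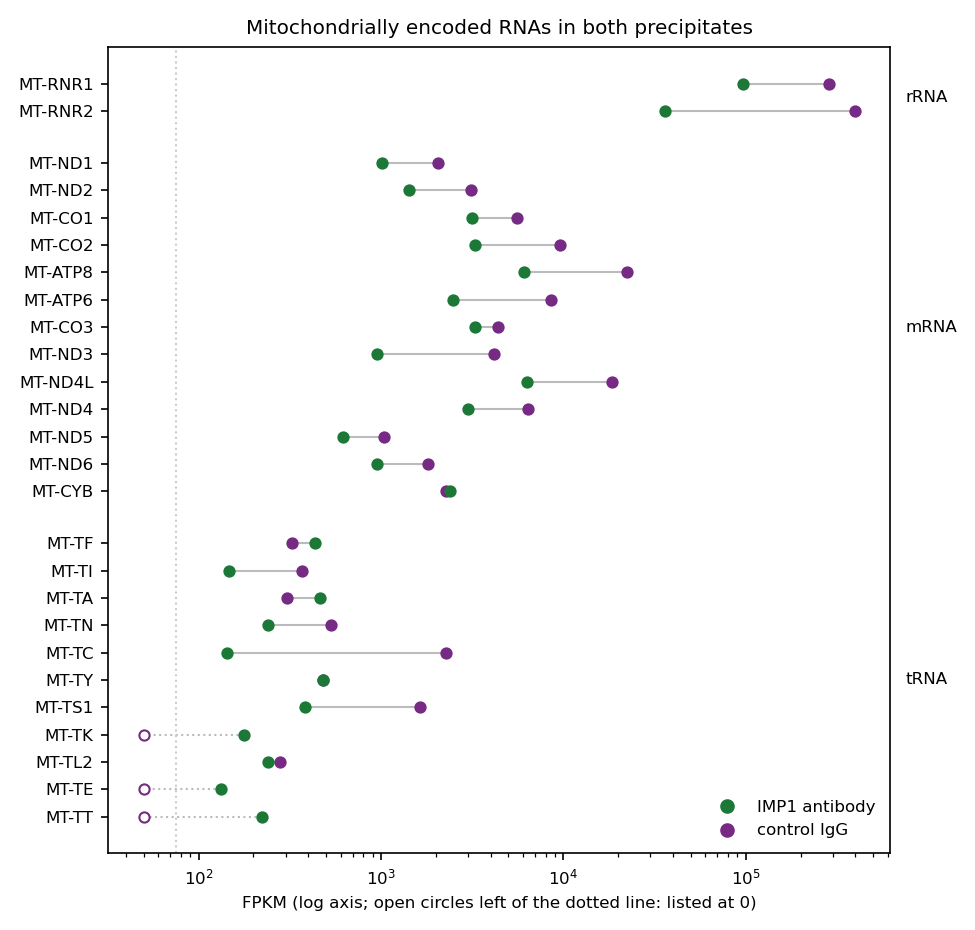
FPKM on a log axis of each mitochondrially encoded gene in the IMP1 library (green) and the IgG library (purple), 1 library each, with genes grouped by class and in genome order. The lines are long for MT-RNR2 and MT-TC and short for MT-CYB (2401 and 2270 FPKM) and MT-TY (484 FPKM in both, drawn on top of each other), and open circles mark 3 tRNAs listed at 0 with IgG.

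All 13 mitochondrial mRNAs were among the 50 highest genes of each library, from rank 5 to 37 with IMP1 and from rank 8 to 42 with IgG. As deposited, 12 of them were lower in the IMP1 library and MT-CYB was not, while with equal sums over all genes 12 were higher and MT-ND3 was not. With equal sums over genes that are no member, 8 were higher and 5 lower. After rescaling to the median gene, 3 were higher and 10 lower. Also lower as deposited were 4822 of the 6909 genes at 1 FPKM or more in each library, and 7941 of all 18781 genes. Their median log2 ratio was -1.10 (range -2.12 to 0.08), 8 were at least 2-fold lower and none was 2-fold higher. Among all genes, 29.9% were at least 2-fold lower and 39.9% higher, and these shares were 44.0% and 11.5% for the genes at 1 FPKM or more in each library. After rescaling to the median gene, 2 of the 13 were at least 2-fold lower, but the shares above hold only for the values as deposited. The order of the mRNA levels was alike in both libraries (Spearman's rho 0.90 over 13 genes of the same 2 libraries, whose lengths also set the FPKM).

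Complex I, which takes electrons from NADH, has 7 mitochondrially encoded subunits. All were lower with IMP1 as deposited, as were 4822 of the 6909 genes at 1 FPKM or more in each library. With equal sums over all genes only MT-ND3 was lower. With equal sums over genes that are no member, MT-ND3 and, narrowly, MT-ND4L (-0.05) were lower. After rescaling to the median gene, all but MT-ND5 were lower. MT-ND3 had 952 FPKM with IMP1 and 4151 FPKM with IgG, 4.36-fold lower and the smallest ratio of the class. MT-ND4L had 6309 and 18600 FPKM. MT-ND4, whose reading frame overlaps that of MT-ND4L on the same transcript, had 2987 and 6404 FPKM. The pair is given under a single locus (chrM from 10470 to 12137), so reads could be split between them, and the quotient of MT-ND4L over MT-ND4 was 2.11 with IMP1 and 2.90 with IgG. MT-ND2 had 1430 and 3120 FPKM, and MT-ND1 had 1010 and 2058 FPKM. MT-ND5 had the lowest level of the mRNAs in both libraries, at 622 and 1043 FPKM. MT-ND6, the only mRNA transcribed from the light-strand promoter, had 951 and 1820 FPKM. Its log2 ratio of -0.94 lay within the range of the 12 other mRNAs and close to the -0.75 of its neighbour MT-ND5. Whether reads were assigned by strand is not given in the sources used here, so reads of MT-ND6 and of the precursor on the opposite strand cannot be told apart.

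MT-CYB, the cytochrome b subunit of complex III, was the mRNA with the largest ratio, at 2401 FPKM with IMP1 and 2270 FPKM with IgG. The catalytic subunits of complex IV, cytochrome c oxidase, did not stay together. MT-CO3 had 3272 and 4397 FPKM, MT-CO1 had 3142 and 5567 FPKM, and MT-CO2 had 3274 and 9642 FPKM. In the IMP1 library the 3 were thus nearly level, whereas with IgG MT-CO2 stood above the others, and the quotient of MT-CO3 over MT-CO2 went from 0.999 with IMP1 to 0.456 with IgG. Both subunits of the ATP synthase, complex V, lay toward the low end, with 6105 and 22265 FPKM for MT-ATP8 and 2475 and 8542 FPKM for MT-ATP6. Their reading frames overlap on a shared transcript, and the quotient of MT-ATP8 over MT-ATP6 was 2.47 with IMP1 and 2.61 with IgG. MT-CO3 follows them directly and is listed under the same locus (chrM from 8366 to 9990), yet its quotient over MT-ATP6 was 1.32 with IMP1 and 0.515 with IgG. Among the 8 mRNAs with a locus of their own, longer loci had larger ratios (Spearman's rho 0.76, Pearson's r 0.60, a description over genes of the same libraries). The extremes by length were MT-ND3 (346 bases, log2 ratio -2.12) and MT-ND5 (1812 bases, log2 ratio -0.75). The part of transcript length in these ratios was not tested.

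**Figure D3:**
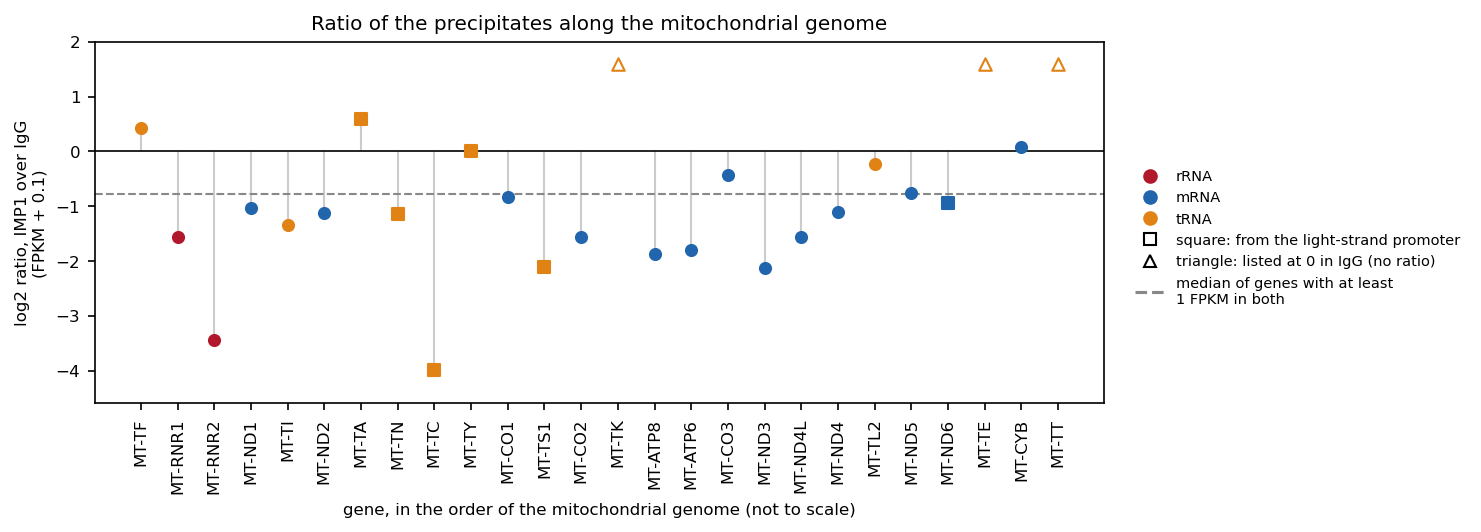
Log2 ratio of IMP1 over IgG (FPKM + 0.1, values as deposited) for the mitochondrially encoded genes in genome order, with squares for genes transcribed from the light-strand promoter and the dashed line at the median of genes at 1 FPKM or more in each library (-0.78). MT-RNR2 and MT-TC lie lowest at -3.44 and -3.99, neighbours differ by up to several log2 units, and triangles mark tRNAs listed at 0 with IgG, for which no ratio is drawn. Rescaling to equal sums over all genes lifts every point by 1.88 and takes all but MT-RNR2, MT-TC, MT-TS1 and MT-ND3 above 0.

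The tRNAs had levels between 133 and 484 FPKM with IMP1 and between 0 and 2271 FPKM with IgG. As deposited, 4 of the 11 were at least 2-fold lower with IMP1 and 3 were higher, the latter all listed at 0 with IgG, against the 29.9% and 39.9% of all genes. The order of the tRNA levels was not shared by the libraries (Spearman's rho 0.19 over 11 genes, 3 of them tied at 0 with IgG, and -0.40 over the 8 above 0 in both, as a description). The tRNAs for lysine (MT-TK, 177 FPKM with IMP1), glutamic acid (MT-TE, 133 FPKM) and threonine (MT-TT, 222 FPKM) were listed at 0 in the IgG library. Of the 12 genes with a locus of at most 100 bases, 5 were above 0 with IgG and the lowest of these was at 281 FPKM, whereas all 12 were above 0 with IMP1, down to 37.6 FPKM. As deposited, the IMP1 levels of MT-TK, MT-TE and MT-TT lay below those 5, which were all tRNAs. They lay above the lowest level above 0 with IgG among loci of at most 200 bases, 12 FPKM. Rescaling to equal sums over all genes, which adds 1.88 to the log2 level, would lift all 3 above the 281 FPKM.

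Among the 8 tRNAs above 0 in both libraries, MT-TC, the tRNA for cysteine, differed most, with 143 FPKM with IMP1 and 2271 FPKM with IgG, or 15.8-fold lower. Its neighbour MT-TY, the tRNA for tyrosine, is listed under the same locus (chrM from 5761 to 5891) and had 484 FPKM in both libraries. The quotient of MT-TC over MT-TY was accordingly 0.296 with IMP1 and 4.69 with IgG, and reads could be split between them. MT-TS1, a serine tRNA, had 381 and 1647 FPKM, and MT-TC and MT-TS1 were the only tRNAs that stayed lower with IMP1 under every rescaling. MT-TI (isoleucine) had 146 and 369 FPKM, and MT-TN (asparagine) had 239 and 533 FPKM. The locus listed for MT-TI spans 138 bases, beside 66 to 73 for the other tRNAs with a locus of their own. Its level may therefore not be that of the tRNA alone. MT-TL2 (leucine) had 241 and 281 FPKM. MT-TF (phenylalanine), which lies just ahead of MT-RNR1, had 433 and 324 FPKM, and MT-TA (alanine) had 462 and 307 FPKM. Only these last 2 of the 8 were above their IgG level as deposited. MT-TA and MT-TN are adjacent genes of the light-strand transcript, and the quotient of MT-TA over MT-TN was 1.93 with IMP1 and 0.575 with IgG. Of the 8, the 5 from the light-strand promoter had a median log2 ratio of -1.15 and ran from MT-TC at -3.99 to MT-TA at 0.59, and the 3 from the heavy-strand promoter had a median of -0.22 and ran from MT-TI at -1.34 to MT-TF at 0.42. The ranges of the strands thus overlapped. The FPKM of all 11 tRNAs summed to 1844 with IMP1 and 5242 with IgG for the light strand, and to 1220 and 974 for the heavy strand. Rescaling to equal sums over all genes would put the light-strand sum above its IgG level too. With IgG the light-strand sum came mostly from MT-TC and MT-TS1, while the heavy-strand sum includes MT-TK and MT-TT, listed at 0 with IgG. Because the use of strand is not given, reads of opposite strands cannot be told apart for the tRNAs either.

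Other short genes gave a different picture. The 44 other genes with a locus of at most 200 bases, mostly spliceosomal RNAs and their variants, had a median log2 ratio of -5.51. Of these, 30 were at least 2-fold lower and 14 higher with IMP1, beside 29.9% and 39.9% of all genes. All 14 higher genes were listed at 0 with IgG, 20 of the lower ones were listed at 0 with IMP1, and the 10 above 0 in both had a median of -5.30. The tRNAs above 0 in both had a median of -0.69, which the rescalings move above 0, whereas the median over all 11 was that of MT-TY, which was level between the libraries as deposited. With a limit of 100 bases only 4 other genes were left, which were all listed at 0 with IgG. The FPKM of RNAs shorter than a typical sequenced fragment depends on the effective length given to them, which is not given in the sources used here.

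The 9 nuclear MTRNR2L copies above 0 in both libraries had ratios closer to that of the 16S rRNA than to that of the 12S rRNA. All 13 copies, of which 4 were listed at 0 with IMP1, were at least 2-fold lower, against 29.9% of all genes, while with a pseudocount of 1 the number was 10. The 9 above 0 in both stayed at least 2-fold lower under each rescaling, which cannot move the 4 at 0. MTRNR2L12 had 66.4 FPKM with IMP1 and 971 FPKM with IgG, and MTRNR2L9 had 67.2 and 876 FPKM. MTRNR2L2 had 38.2 and 511 FPKM, and MTRNR2L8 had 33.1 and 366 FPKM. MTRNR2L10 had 5.99 and 51.4 FPKM, MTRNR2L1 had 2.67 and 45.2 FPKM, MTRNR2L6 had 1.80 and 30.2 FPKM, and MTRNR2L3 had 1.18 and 14.6 FPKM. The ninth copy above 0 in both, MTRNR2L11, had 0.0899 and 5.51 FPKM. The highest 4 copies, which had over 10 FPKM in each library, were between 11-fold and 14.6-fold lower with IMP1. The 9 were between 8.59-fold and 61.3-fold lower, beside 10.9-fold for MT-RNR2 and 2.94-fold for MT-RNR1. The 61.3-fold is that of MTRNR2L11, whose level with IMP1 was below the pseudocount of 0.1. Its log2 ratio with the pseudocount was -4.88, and the next largest fold was 16.9 (MTRNR2L1). MTRNR2L4, MTRNR2L5, MTRNR2L7 and MTRNR2L13 were listed at 0 with IMP1 and were between 0.426 and 2.28 FPKM with IgG, so that the pseudocount sets their ratios. The summed copies came to 0.596% of the FPKM of MT-RNR2 with IMP1 and 0.727% with IgG, but to 0.223% and 1.01% of that of MT-RNR1. The sequences of the copies and of MT-RNR2 were not compared here. Reads may have been shared between them, so the level of any copy as a transcript of its own is uncertain.

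**Figure D4:**
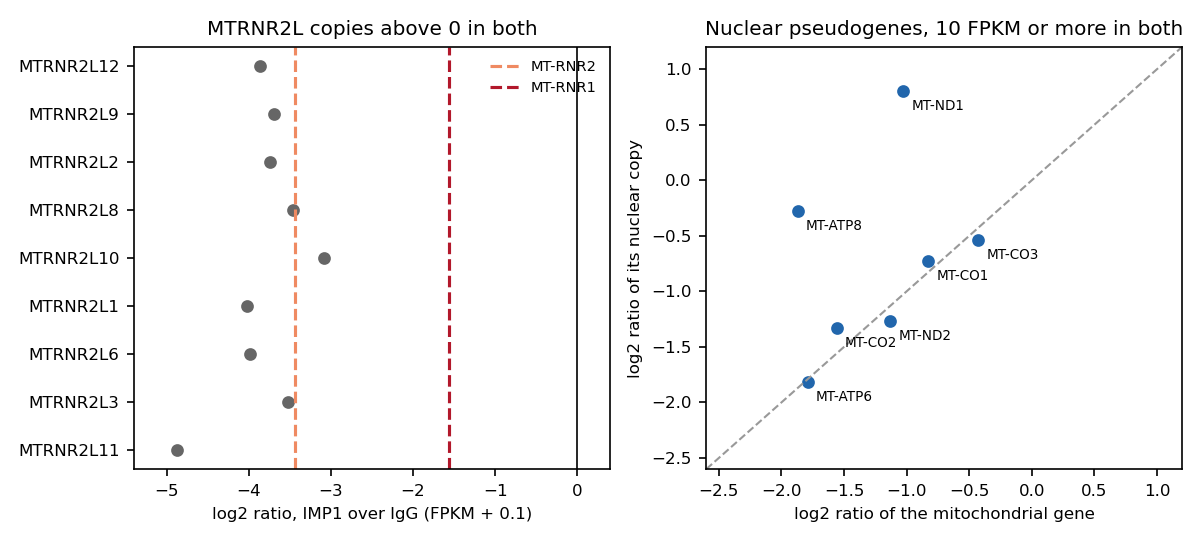
Left, log2 ratio of IMP1 over IgG (values as deposited) of the 9 MTRNR2L copies above 0 in both libraries, beside dashed lines at MT-RNR2 (-3.44) and MT-RNR1 (-1.56), and all 9 points lie nearer to MT-RNR2. Right, log2 ratio of 7 nuclear pseudogenes against that of the mitochondrial gene each is named for, with the diagonal dashed, from which MT-ND1 and MT-ATP8 depart.

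Nuclear copies of the mitochondrial mRNAs were examined in the same way, in a list drawn from the descriptions in the table after the values had been seen. Of 31 such pseudogenes, 7 had at least 10 FPKM in both libraries, and all 7 are listed under a single locus on chromosome 1 from 536816 to 660283. For 5 of these 7 the log2 ratio was within 0.5 of that of the mitochondrial gene, which held for 1 of the 12 other pseudogenes above 0 in both. This contrast depends on the limit, which RP11-380M21.2 and RP11-475J5.4 missed narrowly, with differences of 0.52 and 0.53. At a limit of 1 the number among the 7 was still 5, while more of the 12 others fell within it. Over the 7, the ratios of copy and mitochondrial gene were only weakly related (Spearman's rho 0.29, Pearson's r 0.34, a description over genes of the same libraries). MTATP6P1 had 186 and 655 FPKM, a log2 ratio of -1.82 beside the -1.79 of MT-ATP6. The copy of MT-CO1, which the table names hsa-mir-6723, had 208 and 345 FPKM (-0.73 beside -0.83), and the copy of MT-CO3, RP5-857K21.11, had 129 and 187 FPKM (-0.54 beside -0.43). The exceptions were MTND1P23, with 202 and 116 FPKM (0.80 beside -1.03), and MTATP8P1, with 28.1 and 34.0 FPKM (-0.28 beside -1.87). MTND1P23 reached 20.0% of the level of MT-ND1 with IMP1 and 5.64% with IgG. Reads may have been shared between these copies and the mitochondrial genes, so the level of any copy as a transcript of its own is uncertain. The remaining 24 pseudogenes were under 10 FPKM in a library, and 12 were listed at 0 in 1 of the libraries, among them MTND4LP1 with 20.0 FPKM with IMP1.

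Nuclear genes that serve the same organelle had far lower levels, and the ratios of the respiratory chain subunits at 1 FPKM or more in each library ran from -3.45 (NDUFA5) to 3.41 (ATP5G2), a range that holds every mitochondrial mRNA. The 77 gene entries for nuclear subunits of complexes I, III, IV and V had a median log2 ratio of -0.11, against -1.10 for the mitochondrial mRNAs. Of the 77, 13 were at least 2-fold lower and 18 higher, beside 29.9% and 39.9% of all genes. The shares were 44.0% and 11.5% for genes at 1 FPKM or more in each library, and 73 of the 77 were above 0 in both. By complex, the nuclear median was 0.04 for complex I (40 entries), -0.24 for complex III (10), -0.48 for complex IV (10) and -0.04 for complex V (17), where the mitochondrially encoded subunits had -1.10, 0.08, -0.83 and -1.83. The mitochondrial values for complexes III, IV and V rest on 1, 3 and 2 genes, and MT-CYB lay within the range of the nuclear complex III subunits at 1 FPKM or more in each library, from -1.17 (UQCR11) to 2.18 (CYC1). ATP5G2, a subunit of the ATP synthase ring, had 191 FPKM with IMP1 and 17.9 FPKM with IgG, while USMG5, an accessory subunit, had 62.7 and 207 FPKM. Within complex I, NDUFA8 had 13.4 and 2.27 FPKM, and NDUFA5 had 3.86 and 43.1 FPKM. The summed FPKM of these 77 entries was 3550 with IMP1 and 4140 with IgG, beside 34930 and 89878 for the 13 mitochondrial mRNAs.

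Of 59 gene entries for proteins that make, process, modify or degrade mitochondrial RNA, 27 were at least 2-fold higher with IMP1 and 16 lower, shares near the 39.9% and 29.9% of all genes, and 22 were listed at 0 with IgG. Their median log2 ratio was 0.62, and -0.81 over the 37 above 0 in both, close to the -0.77 of all genes above 0 in both. TFAM, which packages mitochondrial DNA and starts its transcription, had 8.94 and 12.8 FPKM. HSD17B10, a subunit of the ribonuclease that frees the 5′ ends of tRNAs, had 32.8 and 10.6 FPKM, and TRMT5, a tRNA methyltransferase, had 1.15 and 19.4 FPKM. SLIRP, which stabilises mitochondrial mRNAs, had the highest level of this group in both libraries, with 59.4 and 206 FPKM. Among factors of rRNA modification and ribosome assembly, ERAL1, which binds the 12S rRNA, had 18.4 and 15.2 FPKM, and FTSJ2, a methyltransferase of the 16S rRNA, had 9.54 and 20.5 FPKM.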

How the data were processed

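RNA that coprecipitated with an anti-IMP1 antibody or IgG from T47D cells was sequenced, with 1 library per arm. The authors deposited FPKM values per gene on build hg19, and exact zeros, written as 1e-05, were set back to 0, as were 346 values (IMP1) and 228 values (IgG) below that mark. The aligner, the FPKM software, the annotation and the use of strand are not given in the sources used here. The deposited fold changes, p-values and q-values hold the authors' own comparison and were not used. Start positions count from 0 in the table, so 1 was added. A locus there can hold several genes.

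Members were found by name and split by class. The members and gene lists were chosen with earlier results of these data known. All members were named, and from each other list mainly the genes with the highest levels or extreme ratios among those at 1 FPKM or more in each library. Log2 ratios of FPKM + 0.1 were computed, and 2-fold counted as past the threshold. No test was run. The alternatives changed the pseudocount, the filter on low values, the scale between libraries, the fold threshold and the genes summed. The counting was tested on simulated data. Python 3.11.15, numpy 2.4.6, pandas 2.3.3 and matplotlib 3.10.9 were used.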

Additional observations from a re-analysis of the deposited data

How the results depend on the processing

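With 1 library per arm, no replicate could be left out. No paired analysis was possible because each arm holds 1 library. A value counted as moved when it shifted by over 1.5-fold, which held for 36 values, and 3 changed direction. The log2 difference of MT-RNR2 from MT-RNR1, -1.89, was the same under every pseudocount, filter and rescaling run. These could not move it, because rescaling cancels within a library and both genes lie far above the pseudocounts and filters. The sign of the mRNA median turned under both rescalings to equal sums and not under that to the median gene, while MT-ND3 was lower and MT-CYB higher on every scale. Rescaling to the median gene gave medians of -1.71 (rRNAs), -0.31 (mRNAs), 0.79 (tRNAs) and -2.91 (MTRNR2L), with 1 rRNA, 2 mRNAs and 2 tRNAs at least 2-fold lower and 5 tRNAs higher. Rescaling to equal sums over all genes gave -0.63, 0.78, 1.88 and -2.17, with 1 rRNA, 0 mRNAs and 1 tRNA lower and 4 mRNAs and 7 tRNAs higher. Rescaling to equal sums over genes that are no member gave -0.99, 0.41, 1.51 and -2.40, with 1, 0 and 1 lower and 2 mRNAs and 7 tRNAs higher. A pseudocount of 1 gave -2.91 for MTRNR2L. Among genes above 0 in both libraries the tRNA median was -0.69 and 0 tRNAs were higher. At 4-fold, 1 rRNA, 1 mRNA and 2 tRNAs were lower. Without the rRNAs in the sum, the shares with IMP1 were 15.8% (mRNAs), 1.39% (tRNAs) and 0.0982% (MTRNR2L), and with IgG 14.6%, 1.01% and 0.466%. The median of other short genes, -5.51, was 8.80 at a limit of 100 bases. The 4 genes left there were all listed at 0 with IgG, so that the pseudocount sets their ratios. Each of these shifts follows from the construction of its alternative. Shares weighted by locus length were not run, because a locus spans introns and can hold several genes. The depth is unknown, so a listed 0 sets no limit.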
